A study of Mus musculus with 24 samples.

Results

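The genes described here encode the proteins that make microRNAs and the GW182 family proteins and helicase through which Argonaute silences messenger RNA. They were chosen by name, and all 10 of them (Drosha, Dgcr8, Xpo5, Dicer1, Tarbp2, Prkra, Tnrc6a, Tnrc6b, Tnrc6c and Ddx6) were found among the 55536 genes of the count table. Poly(A) RNA was sequenced from enriched pachytene/diplotene spermatocytes, which are cells in late meiotic prophase, and from round spermatids, their haploid products. The males carried 0, 1 or 2 copies of a constitutive deletion on chromosome 4 and are called wild-type (Ago413+/+), heterozygous (Ago413+/-) and null (Ago413-/-). The deletion removes Ago1 entirely and Ago3 and Ago4 in part, and Ago3 and Ago4 messages with premature stops are still made. The line was made in 129 embryonic stem cells and all mice were on a C57BL/6J background, 10 to 15 weeks old, with no other treatment. The testes of 2 to 5 males were pooled for a preparation, the stated purity was incomplete for both fractions and lower for spermatocytes than for round spermatids, and the RNA therefore also holds that of other testis cells.

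MicroRNAs are cut from long nuclear transcripts by Microprocessor, the complex of the nuclease DROSHA and its RNA-binding partner DGCR8, and the hairpins are carried to the cytoplasm by exportin 5. DICER1, helped by the double-stranded RNA-binding proteins TRBP (Tarbp2) and PACT (Prkra), trims them to the duplex that is loaded into an Argonaute. The loaded Argonaute recruits a GW182 protein (Tnrc6a, Tnrc6b or Tnrc6c), which brings in deadenylases and the RNA helicase DDX6 and so represses the target message. Loss of Dicer1 or Drosha from male germ cells is known to disturb spermatogenesis.

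Microprocessor also cuts hairpins that lie inside the Dgcr8 message. In GRCm38.p6 (RefSeq), the hairpin of miR-1306 occupies chr16:18284239-18284317 on the minus strand, and all 79 of its bases fall in coding exon sequence of Dgcr8. It is printed because a read over it lies in exons of both Dgcr8 and Mir1306. Capitals mark the mature arms of the hairpin.
Mir1306: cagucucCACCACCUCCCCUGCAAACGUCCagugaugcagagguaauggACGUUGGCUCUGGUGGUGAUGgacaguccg
The neighbouring hairpin of miR-3618 covers 88 bases of Dgcr8 exon outside the coding sequence. The mature forms of both are given with the seed, bases 2 to 8, in capitals, and their 4 seeds were all different.
mmu-miR-1306-5p: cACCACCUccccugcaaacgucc
mmu-miR-1306-3p: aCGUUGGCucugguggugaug
mmu-miR-3618-5p: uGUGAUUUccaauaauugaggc
mmu-miR-3618-3p: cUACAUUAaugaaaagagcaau
The counts hold no small RNA, so the mature microRNAs themselves were not measured.

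Of 24 libraries, the 3 marked as outliers in the labels were set aside, and 21 were used, namely 4 wild-type, 3 heterozygous and 3 null of spermatocytes and 3 wild-type, 4 heterozygous and 4 null of round spermatids. They held from 12825105 to 29749058 counts, and the lowest count of any of the 10 genes in any of them was 39. Ago1 had 0 counts in all 7 null libraries, as its deletion requires. Levels are given as CPM, which are counts scaled to a common library total (after TMM scaling), with the standard deviation (SD) over libraries, and a gene was called changed by edgeR if its adjusted p was under 0.05 and its log2 fold change was above 0.5 in size. The summed CPM of 7 spermatocyte markers (Sycp1, Sycp3 and others) was 423 to 1303 in wild-type spermatocytes and 261 to 357 in wild-type round spermatids, and that of 5 elongating spermatid markers (Prm1, Tnp1 and others) was 3383 to 8129 and 21723 to 30754, so the spermatocyte fraction also held haploid transcripts. In the mutants the spermatocyte marker sum was 345 to 586 against 207 to 365 in heterozygotes and 254 to 432 against 148 to 259 in nulls, with overlap in both. The elongating spermatid sum did not overlap between fractions in any genotype. Somatic markers were low, with summed levels of 23.6 to 134 CPM for 6 Sertoli genes and 3.02 to 22.8 CPM for 5 Leydig genes over all libraries. Lists of other cells were higher without overlap in wild-type round spermatids than in wild-type spermatocytes, with 14.7 to 20.4 against 7.71 to 13.2 CPM for 7 macrophage genes, 5.51 to 8.54 against 3.39 to 5.25 CPM for 4 peritubular myoid genes and 54.8 to 60.2 against 34.8 to 44.9 CPM for 6 spermatogonial genes. Between null fractions the macrophage and myoid sums again did not overlap, nor did those of the Sertoli genes (68.6 to 134 CPM in round spermatids against 26.3 to 49.5 CPM). Of 5 erythrocyte genes 3 were tested, and their sum did not overlap there either (4.98 to 10.03 against 0.99 to 2.19 CPM). In each null spermatocyte library 3 or 4 of the 5 erythrocyte genes had 0 counts. All of these lists overlapped between heterozygous fractions, and their part in the differences between fractions was not tested.

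In wild-type spermatocytes the level per length was highest for Tarbp2, at 49.6 ± 4.03 CPM per kb of exon (SD, n = 4). Xpo5 (12.2 ± 0.773 CPM per kb), Ddx6 (11.2 ± 3.67), Prkra (8.80 ± 0.873), Tnrc6c (7.22 ± 2.07) and Drosha (3.80 ± 1.5) came next in mean level, and each of these overlapped its neighbour in that order. The lowest were Tnrc6a (1.39 ± 0.486 CPM per kb), Dgcr8 (1.01 ± 0.352), Tnrc6b (0.698 ± 0.0238) and Dicer1 (0.336 ± 0.147). Tarbp2 stood apart from Xpo5, Drosha from Tnrc6a and Tnrc6b from Dicer1, with no overlap between libraries. The lengths are of all annotated exons merged (16.75 kb for Dicer1 and 23.677 kb for Tnrc6b), so a gene that uses a short form is placed too low. In wild-type round spermatids the order began with Tarbp2 (39.2 ± 5.51 CPM per kb, n = 3) and Xpo5 (12.7 ± 0.931) and again ended with Dicer1 (0.415 ± 0.107). Ddx6 moved from the third place to the fifth (5.31 ± 0.851 CPM per kb). Among the GW182 genes, Tnrc6b (1.79 ± 0.138 CPM per kb) now lay above Tnrc6a (1.23 ± 0.207) without overlap, while in spermatocytes it lay below it without overlap.

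**Figure D1:**
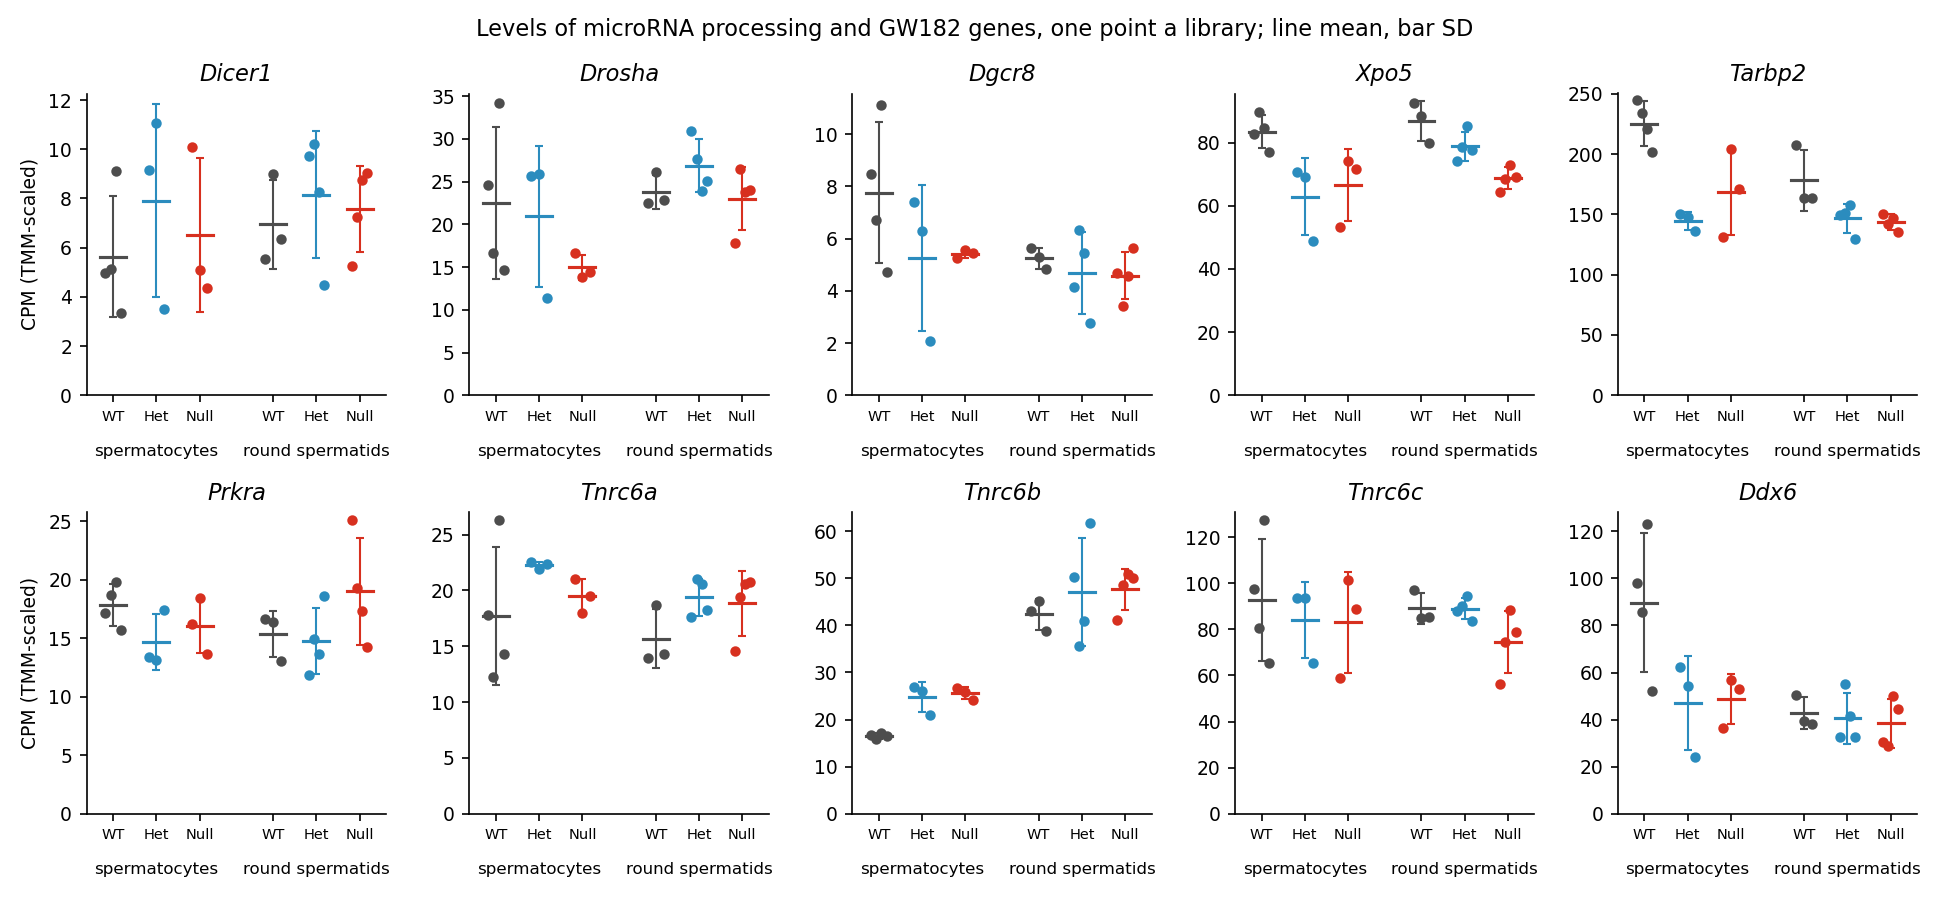
CPM (TMM-scaled, vertical axes from 0) of the 10 genes in the 6 groups, with a point for each library, a line at the mean and a bar for the SD. Tnrc6b sits between 15.8 and 17.1 CPM in wild-type spermatocytes and above 35 CPM in every round spermatid library, while Ddx6 is highest in wild-type spermatocytes.

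Round spermatids were compared with spermatocytes within each genotype. Tnrc6b was the only gene of the 10 called in all 3 genotypes, and it was higher in round spermatids each time. In wild-type spermatocytes Tnrc6b stood at 16.7, 15.8, 17.1 and 16.5 CPM, the smallest spread relative to the mean of the 10 genes in that group, and in wild-type round spermatids at 43.1, 45.2 and 38.8 CPM. Every round spermatid library was above every spermatocyte library. The log2 difference was 1.36 (standard error, SE, 0.16, 95% confidence interval 1.03 to 1.69, 2.56-fold, edgeR adjusted p = 0.000167). Heterozygous spermatocytes had 26.9, 26.1 and 21.1 CPM of Tnrc6b against 50.2, 35.6, 40.9 and 61.7 CPM in heterozygous round spermatids (log2 difference 0.93, SE 0.16, adjusted p = 0.00183). Null spermatocytes had 26.7, 25.8 and 24.2 CPM against 41.2, 48.4, 50.8 and 49.9 CPM in null round spermatids (log2 difference 0.90, SE 0.16, adjusted p = 0.00109). In both mutants the fractions again did not overlap, although the spermatocyte values were above those of the wild type.

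The Tnrc6b call between fractions depended on the libraries left out in the wild type and heterozygotes, not in nulls. The library labelled wild-type spermatocyte replicate 3, called an outlier by the labels, had 42.7 CPM of Tnrc6b, within the range of round spermatids, whereas the other 4 lay between 15.9 and 17.4 CPM on the same scale. The library labelled heterozygous spermatocyte replicate 4 had 37.0 CPM against 21.1 to 27.6 CPM in the others. The outlier among round spermatids, wild-type replicate 3, had 34.5 CPM, below the 38.1 to 45.0 CPM of the others in its group and below the wild-type spermatocyte outlier. With the 3 outliers added back the wild-type log2 difference was 0.89 (adjusted p = 0.0630) and the heterozygous one 0.77 (adjusted p = 0.105), both short of the threshold, while the null one was 0.90 (adjusted p = 0.0389) and was still called. In the fit of the heterozygous groups alone the difference of 0.93 had an adjusted p of 0.0521.

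Ddx6, the helicase of the repressed messenger RNA particle, changed the other way and was called in the wild type only. Its levels in wild-type spermatocytes were 97.9, 85.6, 123 and 52.3 CPM, and in wild-type round spermatids 50.6, 39.4 and 38.1 CPM. The groups did not overlap, but the lowest spermatocyte library came within 2 CPM of the highest round spermatid library. The log2 difference was -1.07 (SE 0.30, 95% confidence interval -1.70 to -0.44, adjusted p = 0.0123). Without wild-type spermatocyte replicate 4 it was -0.88 (adjusted p = 0.0526), without wild-type round spermatid replicate 2 -1.01 (adjusted p = 0.0545), without replicate 4 of that group -0.99 (adjusted p = 0.0562), and with the outliers added back -0.89 (adjusted p = 0.0686), so the call rested on each of these. In the mutants Ddx6 differed by -0.22 (SE 0.29, interval -0.83 to 0.40) in heterozygotes and by -0.34 (SE 0.29, interval -0.96 to 0.27) in nulls, and neither passed the test.

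Of the 10 genes 2 were called between wild-type fractions, against 24.2% of all 20404 genes tested, 1 in heterozygotes against 8.89% and 1 in nulls against 17.1%. The fractions did not overlap for 2 of the 10 genes in the wild type (33.7% of all genes), 3 in heterozygotes (18%) and 2 in nulls (29.7%), so the 10 genes did not stand out from other genes in number. The further genes without overlap were Xpo5 (higher by 0.33, SE 0.14, adjusted p = 0.154) and Tnrc6a (-0.20, SE 0.20, adjusted p = 0.601) in heterozygotes, and Drosha in nulls. Drosha, the nuclease of Microprocessor, had 16.6, 13.9 and 14.4 CPM in null spermatocytes and 17.8, 26.5, 23.7 and 24 CPM in null round spermatids (log2 difference 0.62, SE 0.26, adjusted p = 0.106), and its call was gained when the null groups were fitted alone (0.59, adjusted p = 0.0374). Tarbp2 was lower in wild-type round spermatids by a log2 difference of -0.34 (SE 0.14, interval -0.62 to -0.05, adjusted p = 0.0738), under the fold required. The median log2 difference of the 10 genes was -0.11 in the wild type, 0.03 in heterozygotes and -0.000802 in nulls, beside 0.02, -0.06 and -0.00155 for all genes tested.

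**Figure D2:**
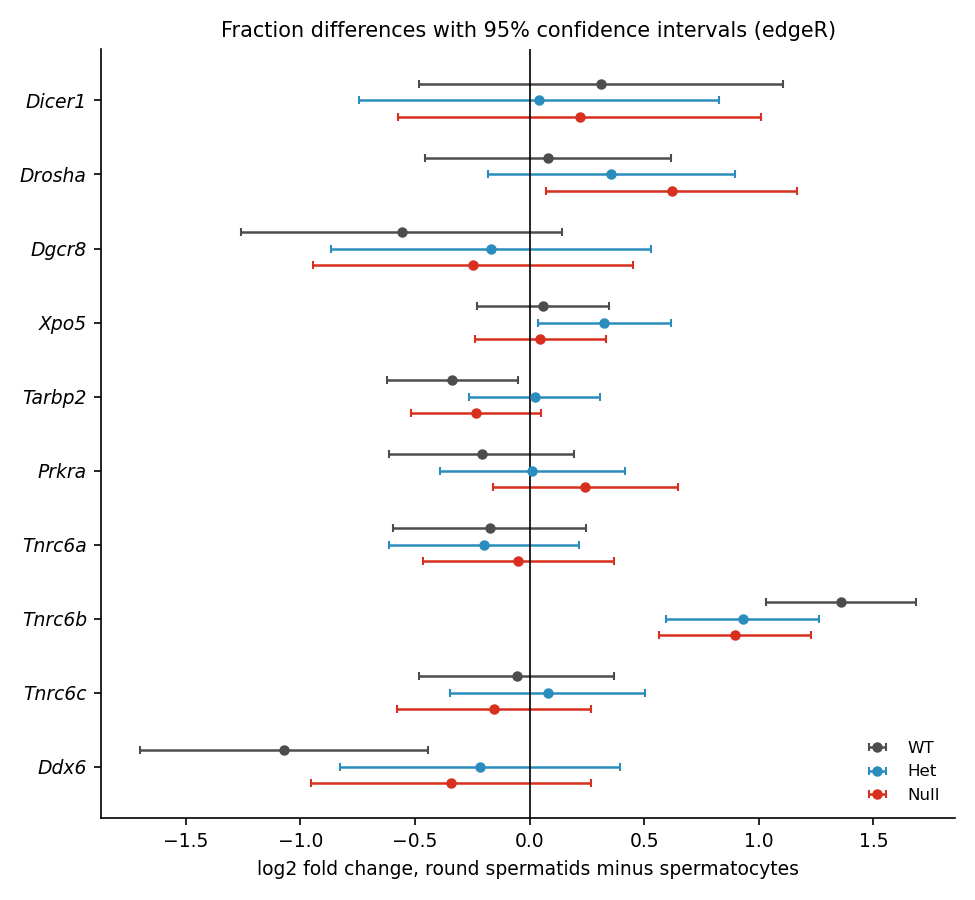
Log2 fold change of each gene between round spermatids and spermatocytes (horizontal axis) in the 3 genotypes, with 95% confidence intervals from edgeR. Only Tnrc6b lies above 0 with its whole interval in all 3 genotypes, at 1.36, 0.93 and 0.90.

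The genes that take a microRNA from transcript to duplex showed no called difference between fractions in any genotype. For Dicer1 the wild-type interval ran from -0.48 to 1.10, for Drosha from -0.46 to 0.62, for Dgcr8 from -1.26 to 0.14, for Xpo5 from -0.23 to 0.35 and for Prkra from -0.61 to 0.19. The intervals of Dicer1, Drosha and Dgcr8 were the widest. Dicer1 ranged from 3.32 to 9.12 CPM among the 4 wild-type spermatocyte libraries and from 5.54 to 8.98 CPM among the 3 of wild-type round spermatids. Dgcr8 ranged from 4.74 to 11.1 CPM in the former and from 4.82 to 5.63 CPM in the latter.

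The 3 GW182 genes encode paralogs that can stand in for each other at Argonaute. As a share of their summed CPM per kb, Tnrc6c made up 77.3 ± 2.54% (SD, n = 4) in wild-type spermatocytes and 69.6 ± 3.06% (n = 3) in wild-type round spermatids. The share of Tnrc6b was 7.87 ± 1.85% in the first and 17.96 ± 0.98% in the second, with library ranges of 5.69 to 10.1% and 17.4 to 19.1%. Tnrc6a had 14.8 ± 1.94% and 12.4 ± 2.13%. Tnrc6c was thus the most abundant of the 3 in both fractions, and the share that Tnrc6b held was larger in every wild-type round spermatid library than in any wild-type spermatocyte library. In null cells the share of Tnrc6b was 12.2 ± 2.68% in spermatocytes and 21.8 ± 1.55% in round spermatids, and that of Tnrc6c 70.4 ± 7.16% and 62.2 ± 1.77%. These shares were not tested, and they depend on the merged exon lengths.

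**Figure D3:**
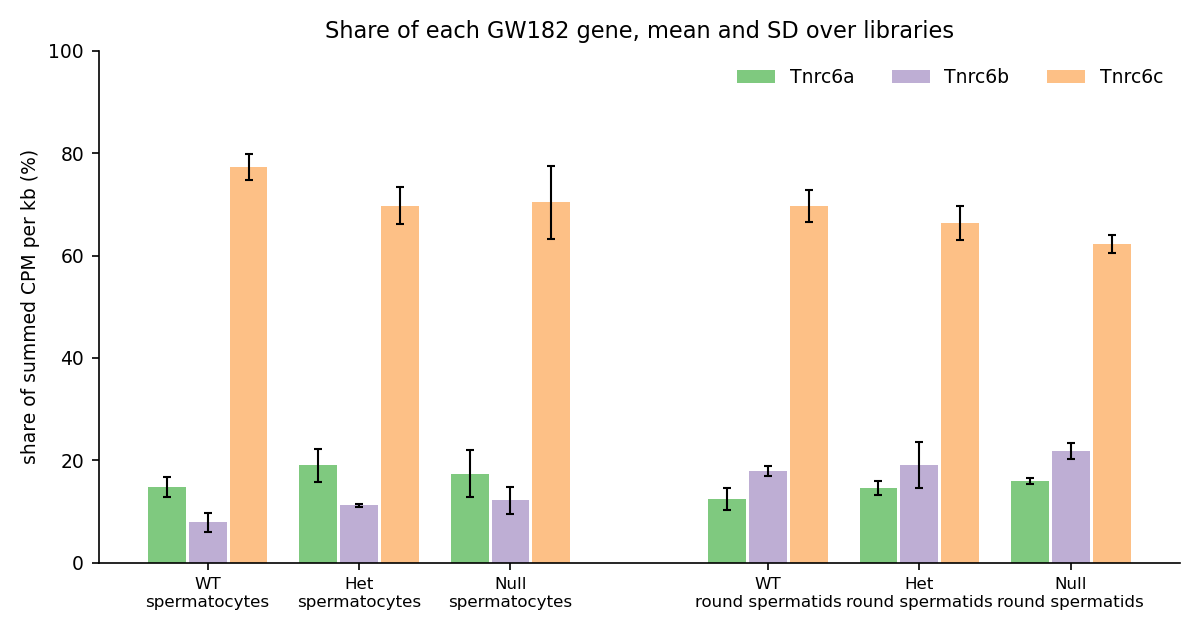
Share of each GW182 gene in their summed CPM per kb (vertical axis, percent, from 0) in the 6 groups, with bars at the mean and the SD over libraries. Tnrc6c holds the largest share in every group, and Tnrc6b holds 7.87% in wild-type and 12.2% in null spermatocytes against 17.96% and 21.8% in round spermatids.

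The effect of the deletion was examined next. In null against wild-type spermatocytes edgeR called 0 of the 10 genes, where it called 0.0411% of 19450 genes tested. At an unadjusted p under 0.05 there were 3 (Tarbp2, Tnrc6b and Ddx6) against 30.4% of all genes, DESeq2 called 1 (Tnrc6b) against 15.2%, and the groups did not overlap for 2 (Xpo5 and Tnrc6b) against 28%. The median log2 fold change was -0.22 for the 10 genes and -0.03 for all genes. In heterozygous against wild-type spermatocytes edgeR called 0 of 10 (0.0257% of all genes), 3 of the 10 had an unadjusted p under 0.05 (24.6%), DESeq2 called 2, Tarbp2 and Tnrc6b (6.16%), and 3 did not overlap, Xpo5, Tarbp2 and Tnrc6b (17.6%). Without wild-type spermatocyte replicate 5, edgeR called 2 of the 10 genes in nulls, Tnrc6b and Ddx6 (4526 of all genes), and 3 in heterozygotes, with Tarbp2 (2966 of all genes). The comparisons of null and heterozygous libraries share the same wild-type libraries and are not independent.

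Tnrc6b gave the smallest p of the 10 in null spermatocytes. Its 3 null and 3 heterozygous libraries, listed above, all lay above the 4 wild-type ones, and the mean was 25.6 ± 1.25 CPM in nulls, 24.7 ± 3.18 CPM in heterozygotes and 16.5 ± 0.564 CPM in wild-type cells. The log2 fold change was 0.65 (SE 0.17, 95% confidence interval 0.29 to 1.02, 1.57-fold, edgeR adjusted p = 0.0599) in nulls and 0.63 (SE 0.17, interval 0.26 to 0.99, 1.54-fold, adjusted p = 0.124) in heterozygotes. DESeq2 gave adjusted p-values of 0.00194 and 0.0134, and without wild-type spermatocyte replicate 5 those of edgeR were 0.0208 and 0.0342. In the edgeR fit of null and wild-type spermatocytes alone the log2 fold change in nulls was 0.69 (adjusted p = 0.0465), which passed. With the outliers added back the fold changes were 0.28 (adjusted p = 0.613) and 0.41 (adjusted p = 0.412). Among libraries numbered up to 60 in the labels the null one had 26.7 CPM against 15.8 to 17.1 CPM in 3 wild-type libraries. Above 60, nulls had 25.8 and 24.2 CPM against 16.5 CPM in wild-type replicate 5, the only wild-type library used there. The wild-type outlier of that set, at 42.7 CPM, lay above both nulls. Nulls and heterozygotes did not separate, with a log2 difference of 0.02 (interval -0.37 to 0.41).

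The summed CPM of 7 round spermatid markers (Acrv1, Spaca1 and others) moved with Tnrc6b in the spermatocyte fractions. It was 880 to 1560 in the wild type, 1642 to 1923 in nulls and 1386 to 2503 in heterozygotes, all markers being detected in every group, and 1823 to 2211 in wild-type round spermatids, and in heterozygotes the fractions overlapped (1646 to 2472 in round spermatids). The elongating spermatid sum did not separate the genotypes, at 3383 to 8129 CPM in wild-type and 3521 to 11920 CPM in null spermatocytes. Within groups the order of the round spermatid sum and Tnrc6b was mixed. Null spermatocyte replicate 1 had the highest marker sum (1923) and the highest Tnrc6b (26.7 CPM) of its group. Wild-type spermatocyte replicate 5 had the highest marker sum of its group (1560) with 16.5 CPM of Tnrc6b, and heterozygous spermatocyte replicate 3 had the highest sum of all spermatocyte libraries (2503) with the lowest Tnrc6b of its group, 21.1 CPM. The part of these markers in the Tnrc6b difference was not tested. In bulk RNA, a different share of cells of a type and a different amount of RNA per cell cannot be told apart.

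Ddx6 was lower in the mutant spermatocytes, with 36.5, 56.8 and 53 CPM in nulls and 62.3, 54.5 and 24.3 CPM in heterozygotes against the 52.3 to 123 CPM of the wild type. The groups overlapped through wild-type replicate 5, the library at 52.3 CPM. The log2 fold change was -0.86 (SE 0.32, 95% confidence interval -1.55 to -0.17, adjusted p = 0.102) in nulls and -0.88 (SE 0.32, interval -1.57 to -0.19, adjusted p = 0.141) in heterozygotes. Without wild-type replicate 5 it was -1.04 (adjusted p = 0.0299) and -1.06 (adjusted p = 0.0381), and with no filter on low counts -0.82 (adjusted p = 0.00707) and -0.91 (adjusted p = 0.00459), and both comparisons then passed. The summed CPM of the 7 spermatocyte markers moved with it: 969, 555, 1303 and 423 in the wild-type libraries in the order of their replicate numbers, 254, 432 and 394 in nulls and 586, 365 and 345 in heterozygotes. Wild-type replicate 4 was the highest of the spermatocyte libraries in both measures, and replicate 5 the lowest of the wild type in both. Of these markers at most 1 was at 0 in any library, and their part in the Ddx6 difference was not tested.

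**Figure D4:**
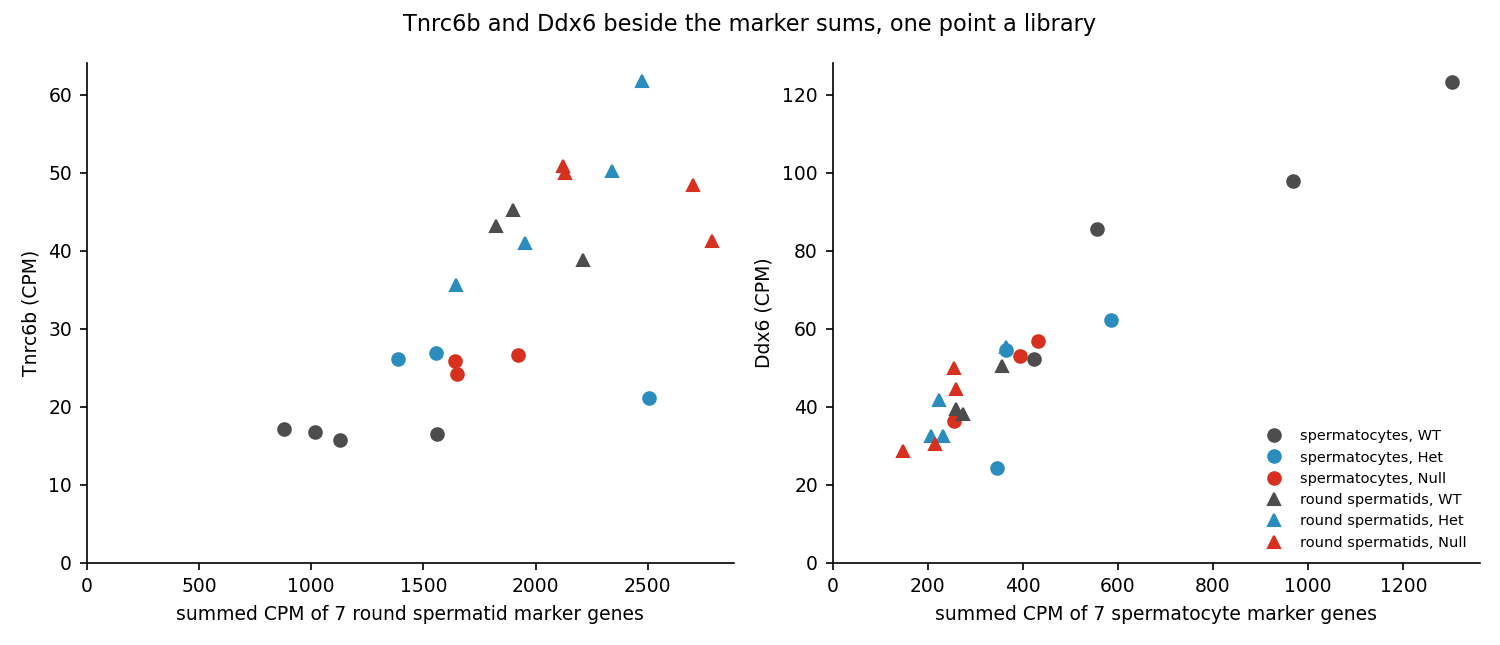
Tnrc6b (left, CPM) beside the summed CPM of 7 round spermatid markers, and Ddx6 (right, CPM) beside that of 7 spermatocyte markers, with a point for each of the 21 libraries. Ddx6 runs from 24.3 to 123 CPM and is highest in the library with the highest spermatocyte marker sum, 1303, while the wild-type spermatocyte library at a round spermatid marker sum of 1560 has 16.5 CPM of Tnrc6b.

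Tarbp2, the Dicer partner TRBP, had a lower mean in both mutants and both fractions, without a call in edgeR when all 21 libraries were used and low counts were filtered. In wild-type spermatocytes it stood at 245, 234, 221 and 202 CPM, in heterozygotes at 150, 148 and 136 CPM and in nulls at 132, 204 and 171 CPM. Heterozygotes lay below all wild-type libraries (log2 fold change -0.59, SE 0.16, interval -0.94 to -0.25, edgeR adjusted p = 0.124, DESeq2 adjusted p = 0.0322), and nulls overlapped with them (-0.40, SE 0.16, adjusted p = 0.118). In heterozygotes edgeR called it without wild-type spermatocyte replicate 5 (-0.63, adjusted p = 0.0312) and with no filter on low counts (-0.63, adjusted p = 0.0432). In round spermatids the wild type had 207, 164 and 164 CPM, heterozygotes 149, 151, 158 and 130 CPM and nulls 150, 142, 147 and 136 CPM. Every mutant library was below every wild-type library there, with log2 fold changes of -0.27 (SE 0.12, adjusted p = 0.552) in heterozygotes and -0.34 (SE 0.12, interval -0.59 to -0.09, adjusted p = 0.148) in nulls. Tarbp2 shares 16.6% of its 31-base words with the pseudogene Gm18584, so part of its reads may have been lost in counting, in all libraries alike.

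Xpo5, the exporter of hairpins, showed a similar step. Wild-type spermatocytes had 82.7, 89.8, 84.7 and 77 CPM, heterozygotes 70.7, 69.2 and 48.8 CPM and nulls 53.5, 74.3 and 71.8 CPM. All 6 mutant libraries were below the 4 wild-type ones, and the log2 fold changes were -0.36 (SE 0.18, adjusted p = 0.224) in heterozygotes and -0.31 (SE 0.18, interval -0.69 to 0.07, adjusted p = 0.246) in nulls. The spermatocyte marker sums given above for Ddx6 moved with both Xpo5 and Tarbp2 in the mutants, where the libraries of each group stood in the same order in all 3 measures. In the wild type replicate 5 was the lowest in all 3, while replicate 4, with the highest sum, was the highest in neither gene. The part of these markers in the Xpo5 and Tarbp2 differences was not tested. In round spermatids the levels of Xpo5 were 92.5, 88.5 and 80.0 CPM in wild-type cells, 74.2, 78.7, 85.2 and 77.6 CPM in heterozygotes and 64.3, 68.6, 72.9 and 69.2 CPM in nulls. Nulls lay below both other groups without overlap, by a log2 fold change of -0.37 against the wild type (SE 0.12, interval -0.61 to -0.12, edgeR adjusted p = 0.123, DESeq2 adjusted p = 0.0332 at a fold under the one required) and of -0.24 against heterozygotes (SE 0.11, adjusted p = 0.647). The spermatocyte marker sum was also lower without overlap in null (148 to 259 CPM) than in wild-type round spermatids (261 to 357 CPM), while the macrophage sum was higher without overlap (20.6 to 27.9 against 14.7 to 20.4 CPM), and the part of these markers in the Xpo5 and Tarbp2 differences there was not tested.

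In null against wild-type round spermatids edgeR called 0 of the 10 genes (0.0518% of 19310 tested; of the called genes 50% were higher with TMM scaling and 25% with RLE scaling). At an unadjusted p under 0.05 there were 2, Xpo5 and Tarbp2 (19.3% of all genes), DESeq2 called 0 (3.62%), and the same 2 genes did not overlap (19.4%). In heterozygous against wild-type round spermatids edgeR called 0 (0.0207%), Tarbp2 alone had an unadjusted p under 0.05 (8.88%) and did not overlap (9.81%), and DESeq2 called 0 (0.0414%). In null against heterozygous spermatocytes edgeR called 0 (0.00514%), 0 genes had an unadjusted p under 0.05 (3.74%), DESeq2 called 0 (0.0206%), and Tnrc6a alone did not overlap (8.62%), at 18 to 21 CPM in nulls below 21.9 to 22.5 CPM in heterozygotes (log2 difference -0.22, SE 0.25, edgeR adjusted p = 0.974). In null against heterozygous round spermatids edgeR called 0 (0.00518%), Xpo5 alone had an unadjusted p under 0.05 (7.67%) and did not overlap (3.93%), and DESeq2 called 0 (0.104%). The median log2 fold change of the 10 genes in null round spermatids was -0.12, beside 0.03 for all genes.

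**Figure D5:**
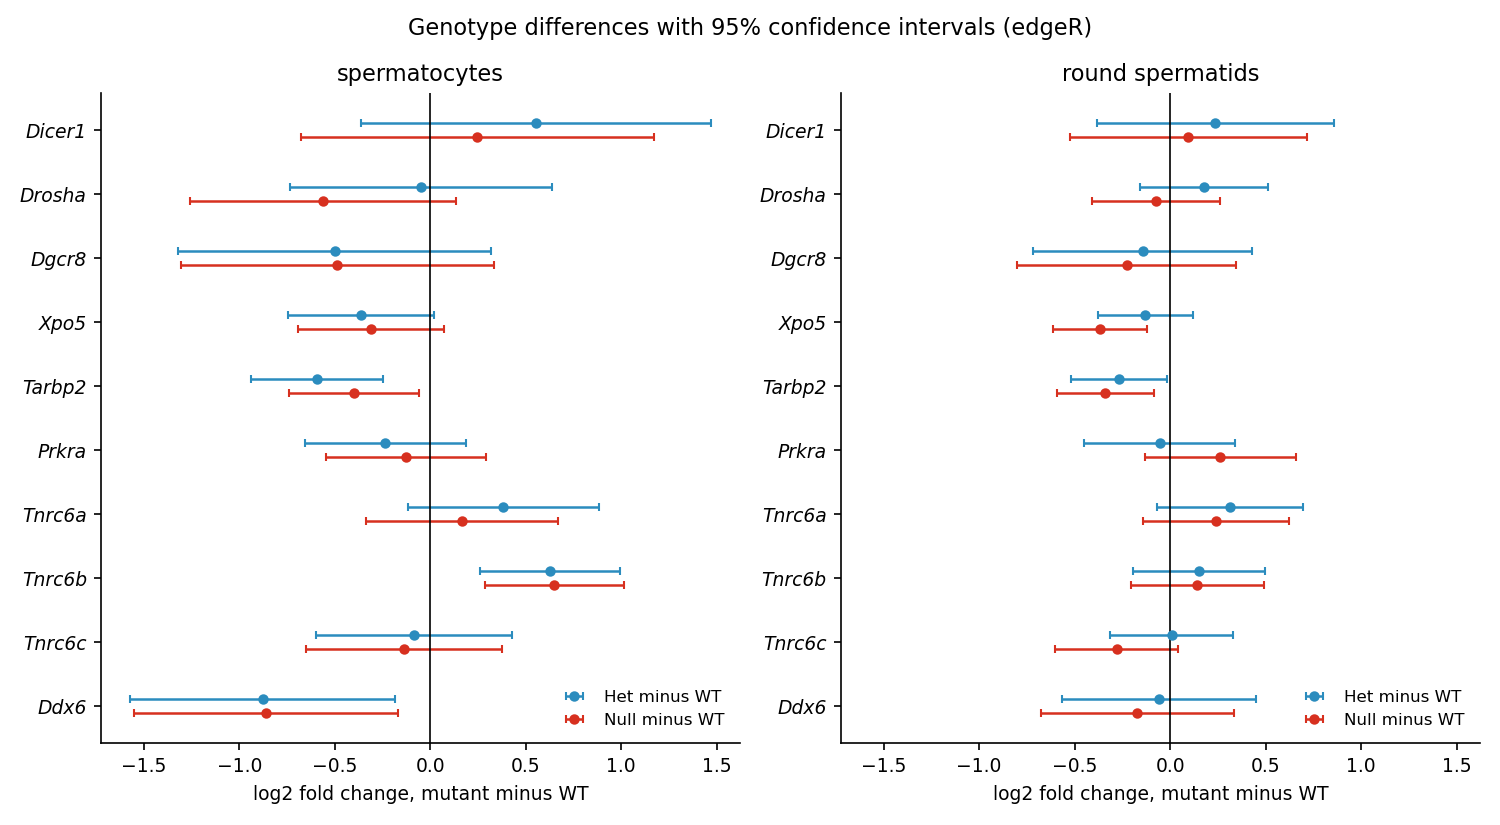
Log2 fold change of each gene in heterozygous and null against wild-type cells (horizontal axis), in spermatocytes and in round spermatids, with 95% confidence intervals from edgeR. The intervals of Tnrc6b lie above 0 and those of Ddx6 below 0 in spermatocytes, at 0.65 and -0.86 in nulls, and both include 0 in round spermatids.

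The remaining genes showed no genotype difference that passed the test by edgeR or DESeq2. In null spermatocytes Drosha differed by -0.56 (interval -1.26 to 0.13), Dgcr8 by -0.49 (interval -1.31 to 0.33), Dicer1 by 0.25 (interval -0.68 to 1.17), Prkra by -0.13 (interval -0.55 to 0.29), Tnrc6a by 0.17 (interval -0.34 to 0.67) and Tnrc6c by -0.14 (interval -0.65 to 0.38). In null round spermatids the corresponding log2 fold changes were -0.08 for Drosha, -0.23 for Dgcr8, 0.10 for Dicer1, 0.26 for Prkra, 0.24 for Tnrc6a and -0.28 for Tnrc6c. In heterozygous against wild-type spermatocytes Drosha differed by -0.05, Dgcr8 by -0.50, Dicer1 by 0.55, Prkra by -0.24, Tnrc6a by 0.38 and Tnrc6c by -0.09, and in round spermatids by 0.18, -0.14, 0.24, -0.05, 0.31 and 0.01. Between nulls and heterozygotes the log2 differences of all 10 genes ran from -0.51 (Drosha) to 0.19 (Tarbp2) in spermatocytes and from -0.29 (Tnrc6c) to 0.32 (Prkra) in round spermatids. For nulls against the wild type the intervals were narrower in round spermatids for each of these genes, for example -0.41 to 0.26 for Drosha and -0.60 to 0.04 for Tnrc6c. Dicer1, the least abundant per length, kept a wide interval there too (-0.52 to 0.71). Drosha in null spermatocytes had little spread (13.9 to 16.6 CPM) and lay at the low end of the wild type (14.6 to 34.2 CPM), with 2 of its 3 libraries below the lowest wild-type one.

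Whether the null effect differed between the fractions was tested as an interaction over all 21 libraries. It called 0 of the 10 genes and 0% of all genes with edgeR, and DESeq2 also called 0% of them. Tnrc6b alone had an unadjusted p under 0.05 (5.95% of all genes), its null effect in round spermatids being smaller by 0.46 on the log2 scale (interaction -0.46, SE 0.22, edgeR adjusted p = 0.807). For Ddx6 the interaction was 0.73 (SE 0.42, interval -0.15 to 1.60, adjusted p = 0.807). With the outliers added back that of Tnrc6b was 0.01.

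Among the 4 Argonaute genes, Ago2 is left intact by the deletion. Its level was 8.58 ± 4.43 CPM in wild-type and 4.24 ± 1.27 CPM in null spermatocytes, and 5.18 ± 1.54 and 3.6 ± 1.24 CPM in round spermatids. In spermatocytes its log2 fold change in nulls was -0.99 (SE 0.44, edgeR adjusted p = 0.148), with overlap between the groups.

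A list of 34 further genes of the pathway (Microprocessor cofactors, editing and tailing enzymes, and proteins of repression and processing bodies) was examined in the same comparisons, and all 34 were tested. edgeR called 0 of them in any comparison of genotypes, while in null against wild-type spermatocytes 11 had an unadjusted p under 0.05 (30.4% of all genes) and DESeq2 called 4 (15.2%). Between wild-type fractions 5 of the 34 were called (24.2% of all genes), 1 higher and 4 lower in round spermatids, so the list held no more called genes than its size gives at that share. With the outliers added back edgeR called 0 of all genes between wild-type and between heterozygous fractions, which ends the calls of those comparisons named here. Higher was Adarb1, an adenosine-to-inosine RNA editing enzyme (28.8 ± 3.97 against 18.9 ± 5.51 CPM, log2 difference 0.60, SE 0.17, adjusted p = 0.0116). Lower were Tut4, which adds uridines to let-7 precursors (15.0 ± 2.57 against 32.2 ± 7.21 CPM, -1.10, SE 0.33, adjusted p = 0.0172), Srrt, which links the cap-binding complex to Microprocessor (-0.78, SE 0.28, adjusted p = 0.0395), and both subunits of the C3PO nuclease, Tsn (-0.61, SE 0.21, adjusted p = 0.0398) and Tsnax (-0.66, SE 0.18, adjusted p = 0.00925). In heterozygotes 1 was called (8.89% of all genes), Fxr1, an RNA-binding protein of the FMRP family, which was higher in round spermatids (1106 ± 260 against 711 ± 26.4 CPM, 0.64, SE 0.15, adjusted p = 0.00707). In nulls 1 was called (17.1% of all genes), Ddx17, a helicase that works with Microprocessor, which was lower there (71.8 ± 13.2 against 125 ± 28.3 CPM, -0.80, SE 0.23, adjusted p = 0.0183).

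Tnrc6b, the gene with the clearest difference between fractions, lies at chr15:80711313-80941085 on the plus strand (GRCm38, GENCODE M21), and RefSeq gives it a pair of start sites whose counts cannot be separated in a table of gene totals. The 250 bases before each start are printed so that the windows can be compared, with the letters of 3 motifs on either strand in capitals (GRCm38.p6). The motifs are TGACG, the half-site bound by CREB and CREM, then CCAAT, the box bound by NF-Y, and CACGTG, the E-box, and none of them overlaps another here.
Tnrc6b, chr15:80711063-80711312: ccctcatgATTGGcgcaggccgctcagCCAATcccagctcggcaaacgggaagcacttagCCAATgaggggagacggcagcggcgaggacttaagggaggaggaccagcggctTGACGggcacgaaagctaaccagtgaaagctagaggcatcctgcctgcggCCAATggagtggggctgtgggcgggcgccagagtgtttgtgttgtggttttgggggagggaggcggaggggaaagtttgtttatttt
Tnrc6b, chr15:80798360-80798609: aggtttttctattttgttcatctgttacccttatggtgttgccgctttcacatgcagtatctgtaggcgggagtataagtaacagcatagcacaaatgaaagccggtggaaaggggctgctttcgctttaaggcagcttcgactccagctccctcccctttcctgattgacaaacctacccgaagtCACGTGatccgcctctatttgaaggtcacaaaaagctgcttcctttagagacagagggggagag
The first window held 1 CREB half-site and 4 NF-Y boxes, and the second held 1 E-box and neither of the other motifs. Their G and C content was 60% and 48%, with 14 and 8 CpG. Of 32851 windows of the same length, 17.8% held the CREB half-site, 33.9% the NF-Y box and 6.02% the E-box, and a match is a description of the letters and not of a bound site. The letters CAACNG, bound by MYB proteins, were also searched on both strands and were in neither window, against 29.3% of all windows. Among windows of the other genes, the CREB half-site occurred in those of Tnrc6c, Drosha, Tarbp2 and Xpo5, and Ddx6 was not matched.

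Reads over exons shared with another gene limit a few of these counts. Exons of Dgcr8 overlap those of Trmt2a on the opposite strand over 825 bases (10.7% of its exon length) and, beside the hairpins, those of Gm49776 on the same strand over 327 bases. Drosha shares 72 exon bases with Gm47288, Tnrc6b 82 with Mir5113 and Tnrc6a 143 with Gm45846. Ddx6 shares 5.48% of its 31-base words with the pseudogene Gm13410. These shares are the same in all groups.

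Across the 21 libraries, the autosomal protein-coding genes whose log2 CPM was most alike in pattern were found for each member among 13590 genes, as a description of libraries that share fractions, pools and depth. For Tnrc6b they were Tns1 (Pearson r = 0.964) and Phlpp1 (0.961), for Ddx6 Cep97 (0.974) and Snx27 (0.970), for Tarbp2 Fbxw5 (0.962) and Mpi (0.961), and for Xpo5 Mlec (0.960) and Mllt1 (0.952). For Dicer1 they were Patl1 (0.923) and Mcm3 (0.921), for Drosha Ankrd52 (0.910), and for Dgcr8 Epb41l5 (0.910) and Pfas (0.900). For Tnrc6c they were Ccdc88c (0.906) and Ep400 (0.893), for Tnrc6a Dazl (0.846) and Nr3c1 (0.822), and for Prkra Map1lc3b (0.775) and Gadd45gip1 (0.759). Among pairs of the 10 genes the highest correlation was that of Dgcr8 with Ddx6 (r = 0.879) and the lowest that of Tarbp2 with Tnrc6b (r = -0.65).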

How the data were processed

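Gene totals were measured in 24 bulk libraries. Per the paper's methods and the labels, the authors made strand-specific poly(A) libraries, trimmed the reads with Trim Galore, aligned them with STAR to mm10 and deposited raw counts per gene from its gene counting option, which keeps reads that align to a single place and lie in the exons of a single gene. The strand column and the annotation release are not given in the sources used here. All 55536 identifiers were matched to GENCODE M21. Groups came from the labels. The 10 genes and the other lists were chosen with earlier results of these data known.

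A gene was tested if at least 3 libraries of the fit held 10 or more counts. Counts were scaled by TMM and tested by quasi-likelihood F tests in edgeR (version 4.0.16, under R 4.3.3), with Benjamini-Hochberg adjustment over every gene tested. Genotypes were compared within a fraction, and fractions and the interaction over all 21 libraries. Each SE was the fold change over the square root of F. DESeq2 1.42.0, RLE scaling, no filter, added outliers, the compared groups only, blocks and left-out replicates were alternatives. Of these, DESeq2 is the method that the paper applied to each cell type, with this filter and these thresholds. The test was checked on simulated counts. All 10 genes were tested in every comparison and are given by value or, in comparisons with few differences, by range, and from the list of 34 genes at most 6 called genes with the largest change. No 2 libraries of a group were repeat deposits. The labels do not say that libraries of a group came from separate animals in each case, so p-values measure the spread between pools, and the tests between fractions take the libraries as independent. Precision is limited by 3 or 4 libraries a group and depths of 12825105 to 29749058 counts. Among the genes most alike in pattern, 1 is not reported here.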

Additional observations from a re-analysis of the deposited data

How the results depend on the processing

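Over 10 comparisons of the 10 genes, log2 fold changes were counted under the alternatives other than leaving out a replicate at a time. Direction and side of the threshold were held by 698, while 30 changed sign, 8 gained and 4 lost the call. With a replicate left out these numbers were 679, 83, 5 and 3. Changes of direction fell on differences that were not called. The number of the 10 genes called in null against wild-type spermatocytes was 0 in the reported test, 1 with DESeq2, with no filter on low counts or with only the compared groups, and 0 to 2 with a replicate left out. In heterozygous against wild-type spermatocytes it was 0, then 2 with DESeq2 or with no filter, and 0 to 3 with a replicate left out. Between wild-type fractions it was 2, then 0 with the outliers added back and 1 to 2 with a replicate left out. In heterozygotes it was 1, then 0 with the outliers or with only the compared groups, and in nulls 1, then 2 with only the compared groups. The cause of these shifts was not tested.

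Over all genes, DESeq2 called 2953 in null and 1199 in heterozygous against wild-type spermatocytes, 4 between mutants, and 699, 8 and 20 in the same comparisons of round spermatids. No filter gave 2623, 1481, 30, 238, 10 and 11. Added outliers gave 3 in heterozygous spermatocytes, 26 in null round spermatids, and 0, 0 and 2275 between fractions of wild-type, heterozygous and null cells. Only the compared groups gave 1303 and 2 in null and heterozygous against wild-type spermatocytes, 0 between mutant spermatocytes and 505 between heterozygous fractions. RLE scaling gave 20 in null round spermatids, and a term for library numbers up to 60 or above gave 4 in null spermatocytes. Leaving out a replicate gave 4 to 4526, 3 to 2966 and 1 gene in the spermatocyte comparisons, 5 to 9, 3 to 4 and 1 to 2 in round spermatids, and 3394 to 6398, 962 to 2329 and 1248 to 4129 between fractions. The highest counts in spermatocytes were reached without wild-type replicate 5, the only wild-type spermatocyte library used with a number above 60.

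Replicate numbers were not taken as pairing, since only 4 of 17 same-numbered pairs within a fraction deviated together (r above 0.1). Consecutive library numbers, which hold both fractions of a genotype, deviated together in 8 of 9 pairs (r from -0.14 to 0.31), which hints at shared preparations, but the labels do not say so and 1 pair did not, so the block on them stayed an alternative. A block on the replicate number changed no call of the 10 genes and gave 687 and 2 called genes in null and heterozygous against wild-type spermatocytes. The block on consecutive numbers also changed no call of the 10 genes, and gave 1113 called genes in place of 1814 between heterozygous fractions. It was fitted to the 9 pairs only. Wild-type spermatocyte replicate 2, heterozygous round spermatid replicate 4 and null round spermatid replicate 2 were therefore left out of it, so its effect and theirs are not separated. With the replicate block Drosha was 0.21 in heterozygous spermatocytes and -0.068 between wild-type fractions, Tnrc6c -0.066 in heterozygous round spermatids, and the interactions of Dicer1, Xpo5 and Tnrc6c were 0.13, 0.042 and 0.0064. With the block on consecutive numbers Dgcr8 was 0.12 and Prkra -0.13 between heterozygous fractions.

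Other changes of sign were these. DESeq2 and RLE scaling each gave -0.0019 for Tnrc6c in heterozygous against wild-type and 0.0090 for Tnrc6b in null against heterozygous round spermatids, and -0.0069 and -0.0078 for Prkra between heterozygous fractions. Added outliers gave Tnrc6b -0.12 in null against heterozygous spermatocytes and 0.017 in round spermatids, Tnrc6c -0.049 in heterozygous round spermatids, Drosha -0.048 between wild-type fractions, Prkra -0.043 and Ddx6 0.00096 between heterozygous fractions, and interactions of 0.046 for Dicer1, 0.0090 for Xpo5, -0.0085 for Tnrc6a and 0.0087 for Tnrc6b. The library number term gave Dicer1 0.27 and Xpo5 -0.042 in null against heterozygous spermatocytes. No filter gave Tnrc6c 0.019 there, and Tarbp2 -0.00020 and Prkra -0.0062 between heterozygous fractions. Only the compared groups gave Tnrc6b 0.017 in null against heterozygous round spermatids.

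With a replicate left out, sign changes came within these ranges. In null against wild-type spermatocytes Dicer1 ran from -0.26 to 0.64 and Tnrc6c from -0.30 to 0.10. In heterozygous against wild-type spermatocytes Drosha ran from -0.23 to 0.28 and Tnrc6c from -0.21 to 0.16. Between mutant spermatocytes Dicer1 ran from -0.81 to 0.019, Dgcr8 from -0.37 to 0.33, Xpo5 from -0.11 to 0.16, Tnrc6b from -0.085 to 0.088, Tnrc6c from -0.22 to 0.11 and Ddx6 from -0.30 to 0.27. In null round spermatids Dicer1 ran from -0.052 to 0.35 and Drosha from -0.14 to 0.041, and in heterozygous ones Dgcr8 from -0.34 to 0.044, Prkra from -0.17 to 0.0091, Tnrc6c from -0.040 to 0.048 and Ddx6 from -0.26 to 0.045. Between mutant round spermatids Dicer1 ran from -0.35 to 0.040, Dgcr8 from -0.27 to 0.11, Tnrc6a from -0.15 to 0.074, Tnrc6b from -0.11 to 0.14 and Ddx6 from -0.27 to 0.088. Between wild-type fractions Drosha ran from -0.082 to 0.35, Tnrc6a from -0.32 to 0.082 and Tnrc6c from -0.19 to 0.14. Between heterozygous fractions Dicer1 ran from -0.33 to 0.36, Dgcr8 from -0.56 to 0.16, Tarbp2 from -0.043 to 0.077, Prkra from -0.12 to 0.13, Tnrc6c from -0.097 to 0.16 and Ddx6 from -0.54 to 0.040. Between null fractions Dicer1 ran from -0.0047 to 0.68, Xpo5 from -0.088 to 0.13, Tnrc6a from -0.10 to 0.056 and Tnrc6c from -0.35 to 0.013. For the interaction Dicer1 ran from -0.43 to 0.37, Xpo5 from -0.15 to 0.074, Tarbp2 from -0.049 to 0.26, Tnrc6a from -0.13 to 0.27 and Tnrc6c from -0.30 to 0.069.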
